A study of Mus musculus with 18 samples.

Results

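The comparison concerns mast cells without Dnmt3a, stimulated through IgE for 24 h against 4 h. Its arrays were taken by sample title: 3 arrays at 24 h and 3 at 4 h, 1 pair from each of knockout cultures 3, 4 and 6, so 6 of the 18 arrays of the study. Messenger RNA was measured on Illumina mouse bead arrays, which read each transcript through short probes. The 24 h group was Dnmt3a knockout (KO) cells after 24 h of IgE and antigen, and the 4 h group was KO cells of the same cultures after 4 h. Untreated KO arrays of those cultures and the 9 arrays of wild-type (WT) cultures 6, 8 and 9, untreated or stimulated for 4 h or 24 h, were used for the fit and for comparison. All cells came from female mice. The sample names carry "5wks", and the labels do not say whether this is the age of the mice or of the cultures. The labels do not describe the knockout allele or the promoter of any Cre, nor whether a culture came from 1 mouse or several. The p-values thus rest on how far changes between conditions varied among the numbered cultures of both genotypes, after pairing by culture.

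Mast cells carry the high-affinity IgE receptor. When antigen crosslinks the bound IgE, kinases at the receptor raise intracellular calcium and activate MAP kinases, calcineurin and NF-kB. The factors NFAT, AP-1, EGR and NF-kB then switch on cytokine and chemokine genes, and feedback inhibitors switched on by the same signals damp the response. Dnmt3a methylates DNA de novo. The comparison sets the late response against the early one.

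All values below are log2 probe intensities after background correction and quantile normalisation, or differences of them. Median raw signals ran from 103 to 159 on the 24 h arrays and from 107 to 153 on the 4 h arrays. Each array's detection limit was the signal that a share of 0.01 of the probes for olfactory and vomeronasal receptors exceeded, and 8985 genes were tested. The 3 Dnmt3a probes were above the limit on 0 of 18 arrays, so the genotype labels could not be checked on the targeted gene. Of 12 mast cell markers 11 were measured, 10 of them above the limit on all 6 arrays, and 0 passed the test between 24 h and 4 h. Macrophage markers were measured for 3 of 15, neutrophil markers for 1 of 12, eosinophil markers for 0 of 8, basophil markers for 5 of 7, T and NK cell markers for 2 of 12, B cell markers for 1 of 9, dendritic cell markers for 2 of 11, erythroid markers for 3 of 9, megakaryocyte markers for 3 of 8, stem and progenitor markers for 4 of 10 and fibroblast markers for 0 of 8. Culture 3 lay on slide 1, culture 4 on slide 2 and culture 6 on slide 3, with every array of a culture on 1 slide, so culture and slide cannot be told apart among the KO cells.

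At 24 h against 4 h, 573 of the 8985 genes passed limma's test at an adjusted p of 0.05, which is 6.38% of the genes tested. Of these, 277 (3.08%) were higher and 296 (3.29%) lower at 24 h. These 2 shares are the background for all counts of list members in KO cells below. Of the pathway lists, those with the highest share of falling members were the feedback inhibitors of MAP kinases (36.4%), secreted cytokines and growth factors (33.3%) and chemokines (30.8%), and those with the highest share of rising members were C-type lectin receptors (2 of 7) and DNA replication (9 of 45). At least 2-fold changes were seen in 83 of the rising and 115 of the falling genes. The median change over all genes was 0.02. The fit paired the arrays by culture, and without the replicate block 67 genes passed (25 higher, 42 lower), all of them among the 573. With the compared groups alone and the block 3 passed (1900 at an unadjusted p under 0.05), and with array weights, whose estimation did not converge, 2653. With median scaling in place of quantile normalisation 595 passed, 71.1% of them higher at 24 h against 48.3% here. The count was 12 without culture 3, 0 without culture 4 (1292 genes at an unadjusted p under 0.05) and 225 without culture 6.

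**Figure D1:**
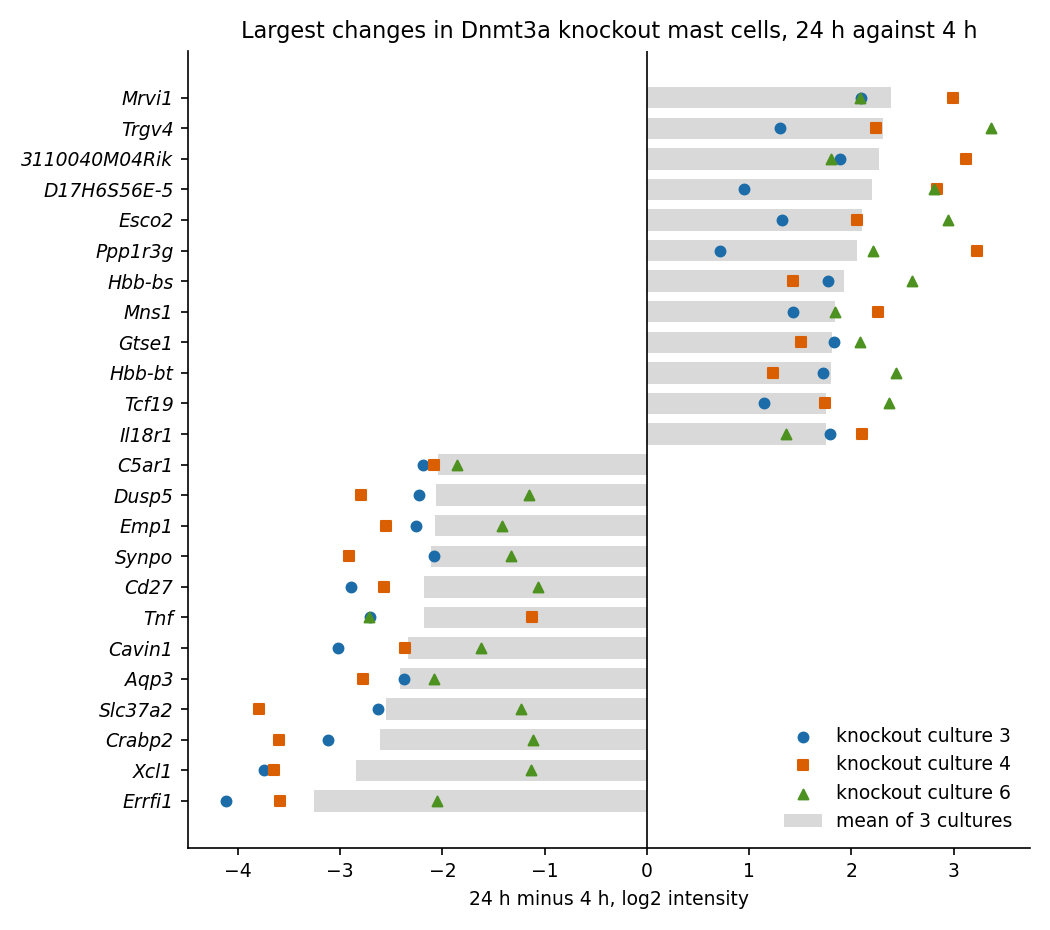
Change of the 12 genes with the largest rise and the 12 with the largest fall among genes past the threshold, in log2 intensity at 24 h minus 4 h. Grey bars are means of 3 KO cultures and symbols are single cultures. Every culture lies on the same side of 0 for each gene, as the choice of genes required. The same held for all 277 rises and all 296 falls past the threshold. Culture 6 has the smallest drop in 11 of the 12 falls.

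Of 24 measured secreted cytokines and growth factors 8 fell, 1 rose and 15 did not pass, against 3.29% of all genes tested that fell and 3.08% that rose. Their median change was -1.0, and it was -0.95, -1.17 and -0.66 in cultures 3, 4 and 6. Tnf, a proinflammatory cytokine, had log2 intensities of 8.65, 8.17 and 8.03 at 24 h in cultures 3, 4 and 6, against 11.36, 9.29 and 10.75 at 4 h. Every 24 h array was below every 4 h array. The mean change of the 3 pairs was -2.18 ± 0.51, with an adjusted p of 0.032 in limma. The ± is limma's standard error, with its spread estimated from all 18 arrays of both genotypes. Il4, which drives type 2 immunity and IgE switching, had 12.02, 10.93 and 11.93 at 24 h, against 14.23, 12.61 and 12.95 at 4 h, and fell by 1.64 (SE 0.31, adjusted p = 0.0171) with no overlap. Il13, its close relative in type 2 immunity, had 9.02, 7.54 and 9.62 at 24 h, against 11.36, 9.37 and 10.30 at 4 h. Each culture was lower at 24 h, by 2.34, 1.83 and 0.68 in cultures 3, 4 and 6, but culture 6 at 24 h lay above culture 4 at 4 h, so the groups overlapped (change -1.62, SE 0.37, adjusted p = 0.0309).

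Lta, which encodes lymphotoxin alpha and belongs to the Tnf family, fell by 1.59 (SE 0.28, adjusted p = 0.0124). Its log2 intensities were 7.99, 7.11 and 8.25 at 24 h, against 10.33, 8.38 and 9.39 at 4 h, with no overlap. The other falling members were Il1a (-1.26), Il6 (-1.05), the growth factor gene Igf2 (-0.99) and Tgfb1 (-0.70). Ebi3, a subunit shared by cytokines of the IL-12 family, was the 1 member that rose, by 0.97 (adjusted p = 0.0243). Csf2, which encodes the granulocyte-macrophage growth factor, had the most negative change of the list and did not pass, with 8.83, 8.24 and 9.08 at 24 h, against 13.69, 10.35 and 10.48 at 4 h. Its change was -4.86 in culture 3, -2.12 in culture 4 and -1.40 in culture 6 (mean -2.79, adjusted p = 0.0914).

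Among chemokines, which attract leukocytes, 4 of 13 measured genes fell, 0 rose and 9 did not pass. The list median was -0.97, with -0.85, -0.78 and -0.27 in cultures 3, 4 and 6. Xcl1, the attractant of cross-presenting dendritic cells, had 7.86, 6.22 and 6.80 at 24 h, with 1 of 3 arrays above the detection limit, against 11.61, 9.87 and 7.93 at 4 h. All 4 h arrays were above all 24 h arrays (change -2.84, SE 0.75, adjusted p = 0.0443), and the size rests partly on signals below the limit. Ccl17, a ligand of CCR4 on T helper type 2 cells, had 7.65, 7.33 and 7.64 at 24 h, against 9.52, 9.06 and 8.93 at 4 h, and fell by 1.63 (SE 0.26, adjusted p = 0.0116).

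Ccl4 and Ccl2, which attract monocytes and T cells, were the other members that fell. Ccl4 had 12.99, 12.47 and 13.76 at 24 h, against 14.57, 13.90 and 14.41 at 4 h (change -1.22, adjusted p = 0.0348), and Ccl2 fell by 0.97 (adjusted p = 0.0159), both without overlap. Ccl7, another monocyte attractant, had 13.85, 13.17 and 13.79 at 24 h, against 13.70, 13.30 and 13.84 at 4 h. Its levels thus overlapped, and the change was -0.01 ± 0.34 (adjusted p = 0.993). Ccl3 (-1.45, adjusted p = 0.122) and Ccl1 (-1.63, adjusted p = 0.175) did not pass although their 24 h and 4 h arrays did not overlap.

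The immediate early transcription factors of the EGR, NR4A and AP-1 groups were measured for 21 genes, of which 6 fell, 0 rose and 15 did not pass (median -0.53). Egr2 had 10.68, 9.34 and 9.83 at 24 h, against 11.90, 11.93 and 11.75 at 4 h. The 4 h levels of the 3 cultures lay close together, the 24 h levels were all lower, and the change was -1.91 ± 0.38 (adjusted p = 0.0201). Egr3 fell by 1.83, Fosl2 by 1.19, Egr1 by 1.17, Junb by 1.15 and Klf6 by 0.77. Fos itself did not pass (-0.34, adjusted p = 0.677), nor did Nr4a3 (adjusted p = 0.0574), which was above the limit on 0 of 3 arrays at 24 h and 3 of 3 at 4 h.

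Of 11 measured feedback inhibitors of MAP kinase signalling 4 fell, 0 rose and 7 did not pass (median -0.55). Errfi1, which inhibits receptors of the EGF receptor family, showed the largest fall of any gene past the threshold. It had 8.49, 8.71 and 8.85 at 24 h, against 12.60, 12.30 and 10.91 at 4 h, and fell by 3.25 (SE 0.66, adjusted p = 0.0201), which is 9.54-fold. Culture 3 also had a high untreated level of 12.13, while untreated cultures 4 and 6 had 8.75 and 8.97. The phosphatase genes Dusp5 and Dusp2, whose products act on ERK in the nucleus, fell by 2.06 and 1.68, and Dusp16, whose product acts on JNK and p38, fell by 0.75.

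Calcineurin, the calcium-dependent phosphatase that activates NFAT, is inhibited by the product of Rcan1, itself a calcineurin target. Rcan1 had 8.50, 8.58 and 8.69 at 24 h, against 10.08, 10.01 and 9.81 at 4 h. All cultures were lower at 24 h by a similar amount (1.58, 1.43 and 1.12 in cultures 3, 4 and 6), and the change of -1.38 ± 0.15 had an adjusted p of 0.00543. Ppp3ca, a catalytic subunit of calcineurin, fell by 0.91 (SE 0.24, adjusted p = 0.0458). These were 2 of the 9 measured genes of this list, with 0 rising and a median of -0.06.

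The promoters of Tnf and Rcan1 are shown because NFAT motifs can be read in both, and AP-1 and EGR motifs in that of Rcan1. Both stretches are the 250 bases before an annotated start, 5′ to 3′ along the gene, from RefSeq on build GRCm38.p6: chr17:35202008-35202257 on the minus strand for Tnf, and chr16:92400079-92400328 on the minus strand for Rcan1. The Rcan1 stretch lies before the start of a shorter transcript, inside the gene, and was chosen because it holds these motifs; the other of the 2 Rcan1 windows has none of them. Capitals mark matches on either strand to GGAAAA (the NFAT core, read as TTTTCC on the other strand), TGACTCA (AP-1) and GGGGGCG (EGR, read as CGCCCCC).
Tnf promoter: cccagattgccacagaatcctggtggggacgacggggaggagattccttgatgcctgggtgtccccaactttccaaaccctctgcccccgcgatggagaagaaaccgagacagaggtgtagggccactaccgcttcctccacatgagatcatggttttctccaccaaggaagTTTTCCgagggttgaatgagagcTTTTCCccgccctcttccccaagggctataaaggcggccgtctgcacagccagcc
Rcan1 promoter: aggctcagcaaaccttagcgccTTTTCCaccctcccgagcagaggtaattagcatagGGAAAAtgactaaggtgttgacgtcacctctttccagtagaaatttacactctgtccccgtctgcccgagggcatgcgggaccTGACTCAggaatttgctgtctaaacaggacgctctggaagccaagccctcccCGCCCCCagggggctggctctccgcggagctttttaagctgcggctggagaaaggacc
Tnf has NFAT matches 78 and 55 bases before the start. Rcan1 has NFAT matches at 228 and 193, an AP-1 match at 110 and an EGR match at 58 bases before that start. Such matches were common: in windows of 300 bases (250 before to 50 after the start), the NFAT motif was in 20.1% of 318 windows of falling genes, against 20.4% of the 9408 windows of all genes tested and 23.4% of 32851 windows in the table. The shares were 5.66% and 3.74% for AP-1, and 34.9% and 28.7% for EGR, in windows of falling genes and of all genes tested, with 5.2% and 16.4% of the whole table. NF-kB motifs (GGGACTT or GGGAATT on either strand) were in 11.0% of windows of falling genes, 9.76% of those of all genes tested and 8.81% of the table. The windows cover 7367 of the 8985 genes, and a match is a description of the letters only.

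NF-kB is held in the cytosol by IkB proteins, several of which are its own targets. Of 17 measured NF-kB subunits, inhibitors and targets 5 fell, 0 rose and 12 did not pass (median -0.53, with -0.75, -0.80 and -0.33 in cultures 3, 4 and 6). Nfkbid, which encodes a nuclear IkB protein, had 8.39, 8.94 and 9.30 at 24 h, against 11.05, 10.42 and 11.10 at 4 h, without overlap (change -1.97, SE 0.30, adjusted p = 0.0116). The nuclear IkB gene Nfkbiz fell by 1.27, the subunit gene Rel by 1.08 and the inhibitor gene Nfkbib by 0.78. The subunit gene Relb, above the limit on 0 of 3 arrays at 24 h, was at least 1.32-fold lower. Nfkbia did not pass (-0.09, adjusted p = 0.864).

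The PD-1 ligand genes Cd274 and Pdcd1lg2, whose products restrain T cells, were the 2 of 9 measured costimulatory genes that passed. Cd274 had 10.06, 9.77 and 9.44 at 24 h, against 10.57, 10.80 and 11.03 at 4 h, and fell by 1.04 (SE 0.21, adjusted p = 0.022). Pdcd1lg2 fell by 1.12 (adjusted p = 0.022), and both groups of arrays were separate for both genes. Of 17 SOCS and inhibitory adaptor genes 2 fell (11.8%, against 3.29% of all genes tested) and 0 rose (median 0.01). Cish, a feedback inhibitor of cytokine receptor signalling through STAT5, fell by 1.04 (adjusted p = 0.0116). Lilrb4a, an inhibitory receptor gene of mast cells, fell by 0.46 (adjusted p = 0.035) by its brightest probe, but its other probe had the opposite sign. The BCL2 family of survival regulators had 0 of 14 genes past the threshold, and its largest changes were -1.14 for Bcl2l11 (adjusted p = 0.0789) and -1.01 for Bcl2l1 (adjusted p = 0.0837).

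Of 15 measured transcription factors of the mast cell lineage 4 fell and 0 rose (median -0.49). Spi1, which encodes PU.1, had 7.30, 7.08 and 6.69 at 24 h, against 8.14, 8.02 and 7.81 at 4 h (change -0.97, SE 0.19, adjusted p = 0.0201). Tal1 fell by 0.90, Ikzf1, which encodes Ikaros, by 0.79, and Runx1 by 0.75. Gata2 did not pass (0.09, adjusted p = 0.725). Of 23 genes of proximal IgE receptor signalling 2 fell (8.70%, against 3.29% of all genes tested). They were the calcium channel gene Orai1 (-1.20, adjusted p = 0.0347) and the adaptor gene Gab2 (adjusted p = 0.0354). Gab2 was above the detection limit on 0 of 3 arrays at 24 h and 2 of 3 at 4 h, so that no fold is given. Lat and Btk of this list did not pass (-0.42 and 0.06), and Syk was above the limit on 0 of 6 arrays.

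Further large falls lay outside these groups. Crabp2, which encodes a carrier of retinoic acid to its nuclear receptor, had 7.58, 6.38 and 7.77 at 24 h, against 10.70, 9.98 and 8.88 at 4 h, and fell by 2.61 (adjusted p = 0.0201). The caveolar coat gene Cavin1 fell by 2.34, the phosphorylated sugar transporter gene Slc37a2, above the limit on 1 of 3 arrays at 24 h, by 2.55 and Cd27, which encodes a receptor of the TNF receptor family, by 2.18. Aqp3, a channel gene for water and glycerol, was above the limit on 0 of 3 arrays at 24 h and 3 of 3 at 4 h, and was at least 2.92-fold lower at 24 h (adjusted p = 0.0201), where the limit of each 24 h array stands in for its level. The actin-binding gene Synpo fell by 2.11, the membrane protein gene Emp1 by 2.08 and C5ar1, the receptor gene of complement C5a and above the limit on 1 of 3 arrays at 24 h, by 2.05. Chst11, a sulfotransferase gene for chondroitin, was the 1 of 16 granule protease and proteoglycan genes that passed, with a fall of 1.83 (adjusted p = 0.0396). That is 6.25% of the list, against 3.29% of all genes tested that fell.

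Lyz2, which encodes lysozyme and is a macrophage marker, fell by 1.18 (adjusted p = 0.0373). It had 7.01, 6.32 and 6.47 at 24 h, against 8.65, 6.93 and 7.77 at 4 h, and 1 of 3 arrays at 24 h was above the limit. The other macrophage markers measured, Adgre1 and Cx3cr1, had changes of 0.66 (adjusted p = 0.0962) and 0.91 (adjusted p = 0.11), and the summed linear intensity of the 3 markers was 1029 to 1268 at 24 h and 716 to 945 at 4 h. A part of macrophages in the fall of Lyz2 was not tested. In bulk RNA a change in the number of cells of a type and a change in RNA per cell cannot be told apart.

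Among the pathway lists, mitosis and DNA replication had the highest medians. All 45 measured genes of DNA replication and S phase had positive changes, against 4733 of all 8985 genes tested. Of the 45, 9 rose (20%, against 3.08% of all genes tested), 0 fell and 36 did not pass. The list median was 0.71, against 0.02 over all genes. Cdc6, which loads the replicative helicase onto origins, had 8.15, 9.75 and 9.70 at 24 h, against 6.95, 7.62 and 8.04 at 4 h, and rose by 1.66 (SE 0.27, adjusted p = 0.0116). Every 24 h array was above every 4 h array, and culture 3 was the lowest of its group both times. Mcm10, a factor of origin firing, rose by 1.32, with 8.49, 10.21 and 9.97 at 24 h, against 7.84, 8.75 and 8.13 at 4 h, where culture 3 at 24 h lay below culture 4 at 4 h. Chaf1b and Chaf1a, subunits of the chromatin assembly factor that follows the fork, rose by 1.30 and 0.96, the polymerase genes Pold1 and Pola2 by 0.98 and 0.78, and the clamp loader gene Rfc3 by 0.71.

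The remaining S phase rises were in Uhrf1, by 1.12, and Dnmt1, by 0.50. Dnmt1 copies DNA methylation after replication and Uhrf1 guides it to the new strand. Dnmt1 had 9.50, 10.42 and 10.42 at 24 h, against 8.99, 9.83 and 10.03 at 4 h, so that the groups overlapped while each culture rose (adjusted p = 0.0458). With Cbx5, which encodes a heterochromatin protein (0.75, adjusted p = 0.0309), they were the 3 of 18 DNA methylation and repressive chromatin genes that rose, and 0 fell. Rbl1, a pocket protein gene of the retinoblastoma family, rose by 1.40 (adjusted p = 0.0301), and the antiproliferative gene Btg1 fell by 0.66 (adjusted p = 0.0451). They were 1 member each way of 20 CDK inhibitor and growth arrest genes (5% each, against 3.08% and 3.29% of all genes tested). Histone genes were measured for 50, of which 2 rose, against 3.08% of all genes tested. They were H2ac8, by 1.54, and H2ac6, above the limit on 0 of 3 arrays at 4 h, at least 1.34-fold.

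Of 48 measured genes of mitosis and the kinetochore 47 had positive changes, against 4733 of all 8985 genes tested. Of the 48, 3 rose (6.25%, against 3.08% of all genes tested) and 45 did not pass, with a median of 1.15. Esco2, a cohesin acetyltransferase gene, had 7.97, 9.73 and 9.63 at 24 h, against 6.65, 7.67 and 6.68 at 4 h, where 1 of 3 arrays was above the limit, and rose by 2.11 (SE 0.43, adjusted p = 0.0211). Gtse1, expressed in G2 and S phase, had 9.52, 9.84 and 10.17 at 24 h, against 7.69, 8.34 and 8.09 at 4 h, and rose by 1.81 (SE 0.43, adjusted p = 0.0347). Ect2, an exchange factor that starts cytokinesis, rose by 0.54 (adjusted p = 0.0469). Of the 48 genes 28 were above the detection limit on all 6 arrays. Top2a, the mitotic topoisomerase gene, named here after its values were seen, had 8.09, 9.95 and 9.27 at 24 h, against 8.04, 8.42 and 7.25 at 4 h. Its levels in culture 3 were nearly the same at both times, and the change of 1.20 ± 0.49 did not pass (adjusted p = 0.15).

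The cultures took different courses in these genes. The median of the mitosis list was 0.34 in culture 3, 0.99 in culture 4 and 2.06 in culture 6, with changes of at least 1 in 5, 23 and 39 of the 48 genes. For the replication list the medians were 0.21, 0.95 and 0.87. Against untreated cells of the same culture, the mitosis list stood at -0.91, -0.80 and -0.15 at 4 h and at -0.65, 0.19 and 1.84 at 24 h in cultures 3, 4 and 6. Culture 3 was thus still below its untreated level at 24 h, and culture 6 was above it with little drop at 4 h.

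**Figure D2:**
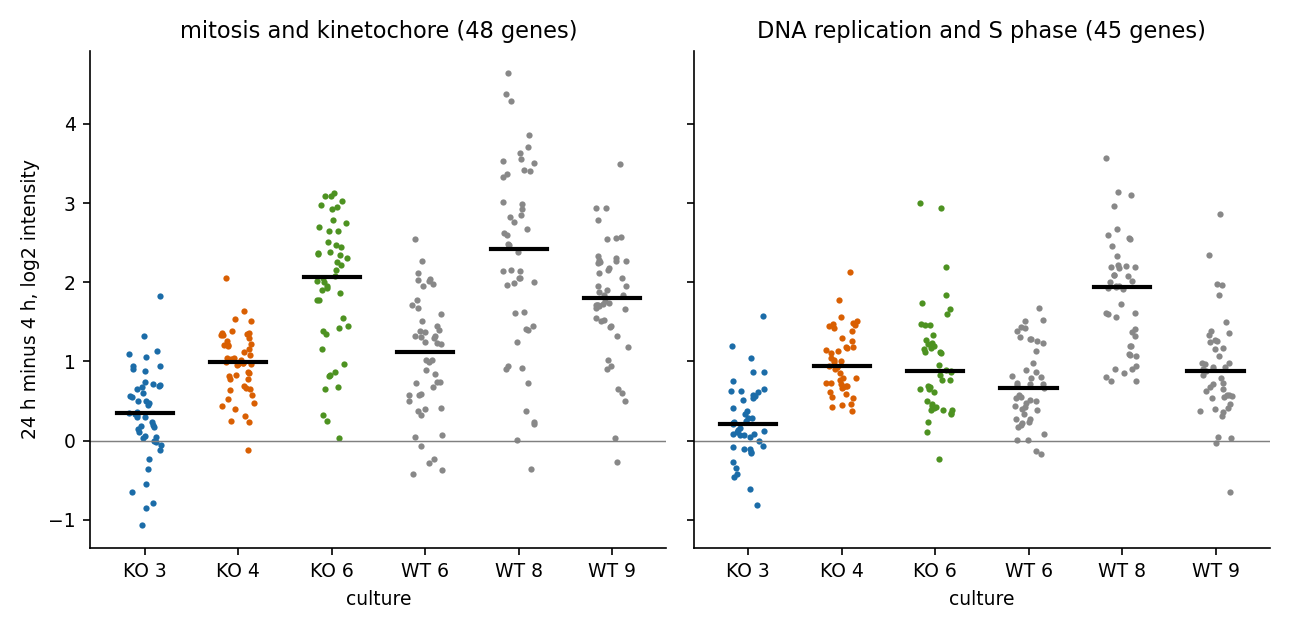
Change at 24 h minus 4 h, in log2 intensity, of each measured gene of mitosis and the kinetochore (left) and of DNA replication and S phase (right) in KO cultures 3, 4 and 6 and WT cultures 6, 8 and 9. Points are genes and black bars are medians, which for the mitosis list are 0.34, 0.99 and 2.06 in the KO cultures and 1.12, 2.42 and 1.80 in the WT cultures.

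Mitotic promoters often hold the CHR element (TTTGAA or TTCGAA) with CCAAT boxes, and promoters of replication genes often hold E2F sites (TTCCCGC or TTGGCGC). The 250 bases before the start of Top2a, at chr11:99024190-99024439 on the minus strand, of Ect2, at chr3:27153879-27154128 on the minus strand, and of Cdc6, at chr11:98907901-98908150 on the plus strand, are shown as examples of both, from RefSeq on build GRCm38.p6. Capitals mark matches on either strand.
Top2a promoter: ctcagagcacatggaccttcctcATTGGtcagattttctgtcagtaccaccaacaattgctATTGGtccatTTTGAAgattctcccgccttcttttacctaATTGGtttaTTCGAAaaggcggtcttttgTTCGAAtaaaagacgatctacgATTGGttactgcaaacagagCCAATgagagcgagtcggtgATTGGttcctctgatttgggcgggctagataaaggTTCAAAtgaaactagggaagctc
Ect2 promoter: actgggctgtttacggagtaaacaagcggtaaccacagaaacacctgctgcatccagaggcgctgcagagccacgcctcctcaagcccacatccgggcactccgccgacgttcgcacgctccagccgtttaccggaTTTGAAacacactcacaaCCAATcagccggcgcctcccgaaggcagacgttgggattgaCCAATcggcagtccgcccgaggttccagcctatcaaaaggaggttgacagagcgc
Cdc6 promoter: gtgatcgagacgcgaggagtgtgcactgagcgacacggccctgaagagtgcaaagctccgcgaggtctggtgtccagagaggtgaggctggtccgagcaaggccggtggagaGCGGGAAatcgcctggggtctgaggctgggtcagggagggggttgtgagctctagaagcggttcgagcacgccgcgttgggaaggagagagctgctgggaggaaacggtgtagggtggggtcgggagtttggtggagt
Top2a has CHR matches 179, 140, 120 and 23 bases before the start and 6 CCAAT boxes between 227 and 58. Ect2 has a CHR match at 114 and CCAAT boxes at 96 and 55, and Cdc6 has an E2F match at 138. In windows from 250 bases before to 50 after the start, a CHR match was in 34 of 43 windows of the mitosis list (79.1%), against 14.1% of windows of all genes tested and 19.2% of the whole table. CCAAT boxes were in 81.4% of the mitosis windows, 38.0% of those of all genes tested and 37.4% of the table, and E2F matches in 46.8% of the 47 windows of the replication list, 12.1% and 6.81%. In the 301 windows of all genes that rose, the shares were 15.6% for CHR, 46.8% for CCAAT and 17.6% for E2F. These shares describe the lists.

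Beta globin genes were among the largest rises. Hbb-bs, an adult beta globin gene, had 13.89, 10.63 and 12.78 at 24 h, against 12.12, 9.21 and 10.19 at 4 h, and rose by 1.93 (SE 0.39, adjusted p = 0.0201). The cultures differed more than the times, so that the groups overlapped, but each culture rose, by 1.77, 1.43 and 2.60. Hbb-bt rose by 1.80 (adjusted p = 0.0307). Both genes are near-identical copies, and probes may not tell them apart. Of 5 measured globin genes these 2 passed, and the alpha globin gene Hba-a1 did not (-0.17, adjusted p = 0.832). Klf1, the erythroid transcription factor gene, was above the limit on 3 of 3 arrays at 24 h and 0 of 3 at 4 h, and was at least 1.58-fold higher at 24 h (adjusted p = 0.0219). Of 9 erythroid markers 3 were measured, 0 of them above the limit on all 6 arrays. Their summed linear intensity, which leaves out Hbb-bs and Hbb-bt, was 416 to 485 at 24 h and 286 to 628 at 4 h. A part of erythroid cells in the rise of the globin genes was not tested.

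Among other receptor genes Il18r1, which encodes the IL-18 receptor, had 10.70, 9.98 and 9.55 at 24 h, against 8.91, 7.88 and 8.19 at 4 h, and rose by 1.75 (SE 0.23, adjusted p = 0.0116). It was the 1 of 15 mast cell cytokine receptor genes that passed (6.67%, against 3.08% of all genes tested that rose). Kit did not pass (-0.14, adjusted p = 0.776). Fcgr2b, the inhibitory IgG receptor gene, had 9.47, 9.35 and 9.07 at 24 h, against 8.02, 7.76 and 8.13 at 4 h, and rose by 1.33 (SE 0.29, adjusted p = 0.0269), as 1 of 7 genes for IgE and IgG receptors. Both genes were clearly separate between the times. The C-type lectin genes Clec4n, which encodes dectin-2, and Clec10a rose by 1.50 (adjusted p = 0.0201) and 1.15 (adjusted p = 0.0179), as 2 of 7 such genes with 0 falling.

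Genes of granule release and lipid mediators also rose in part. Rab3d, a small GTPase gene of secretory granules, rose by 0.89, Unc13d, which encodes the granule priming factor Munc13-4, by 0.87 and Rab3a by 0.58, as 3 of 18 exocytosis genes with 0 falling. Unc13d had 9.35, 9.42 and 9.27 at 24 h, against 8.08, 8.37 and 8.98 at 4 h, without overlap, and the smallest difference was that of culture 6. Ltc4s, the leukotriene C4 synthase gene, had 9.36, 9.74 and 9.39 at 24 h, against 8.83, 8.98 and 8.24 at 4 h. It rose by 0.82 (adjusted p = 0.0194), as 1 of 10 genes of histamine, serotonin and eicosanoid synthesis (10%, against 3.08% of all genes tested). Hdc, the histamine-forming enzyme gene, did not pass (-0.89, adjusted p = 0.147). Ctsc, whose protease activates granule proteases, rose by 0.87 as 1 of 27 lysosome genes (3.70%, near the 3.08% of all genes tested that rose).

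In metabolism and stress lists, few genes passed. Of 24 glycolysis and hypoxia genes 3 rose and 0 fell: the carbonic anhydrase gene Car9 by 1.44, the pyruvate dehydrogenase kinase gene Pdk1 by 1.0 and the lactate dehydrogenase gene Ldha by 0.51. Ldha had 12.77, 13.11 and 13.11 at 24 h, against 12.38, 12.61 and 12.45 at 4 h, without overlap. One gene rose in each of 3 further lists: Dhcr7, which makes cholesterol in its last step (0.66, of 17 genes), the interferon-induced GTPase gene Ifi47 (0.93, of 27) and the disulfide isomerase gene Pdia3 (0.70, of 33). The shares of these lists were 5.88%, 3.70% and 3.03%, against 3.08% of all genes tested that rose. Of 32 ribosome biogenesis genes 27 had negative changes, against 4252 of all 8985 genes tested, with a list median of -0.32. Only Rrp9, a component of the particle that cuts the ribosomal RNA precursor, passed, with a fall of 0.74 (adjusted p = 0.0201). That is 3.125% of the list, near the 3.29% of all genes tested that fell. None of 32 respiratory chain, 30 mitochondrial ribosome, 18 cytosolic ribosomal protein and 27 proteasome genes passed, and their medians lay between -0.03 and 0.07. The largest changes in the respiratory chain list were those of Cox7b (0.41, adjusted p = 0.328) and Atp5a1 (0.29, adjusted p = 0.352), and the largest in the mitochondrial ribosome list was that of Mrpl9 (-0.51, adjusted p = 0.123).

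Marker genes of mast cells and of other blood cells mostly did not pass. Mcpt4, a connective tissue mast cell protease gene, had 10.90, 8.88 and 8.73 at 24 h, against 9.22, 9.39 and 6.83 at 4 h, with opposite directions between cultures (change 1.02, adjusted p = 0.449). The tryptase gene Tpsab1 had a change of -0.98 (adjusted p = 0.204). Of the 5 basophil markers measured, 1 had a positive and 4 a negative change (median -0.21), from 0.60 for the protease gene Mcpt8 (adjusted p = 0.515) to -0.54 for Ccl6 (adjusted p = 0.339, above the limit on 0 of 3 arrays at 24 h). The T and NK cell markers measured were Nkg7 (0.54, adjusted p = 0.44) and Zap70 (-0.33, adjusted p = 0.489). Changes were 0.75 for the antigen presentation gene H2-Ab1 (adjusted p = 0.12) and 0.54 for the progenitor factor gene Meis1 (adjusted p = 0.0711). Cd34, a progenitor marker, had 0.18, the neutrophil elastase gene Elane -0.01 and the B cell precursor gene Vpreb1 0.07, none past the threshold.

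The other largest rises were Mrvi1, a substrate gene of the cyclic GMP kinase (2.39), the T cell receptor gamma segment Trgv4 (2.30), 3110040M04Rik (2.27), D17H6S56E-5 (2.20), Ppp1r3g, a glycogen-targeting subunit gene (2.05), Mns1 (1.84) and Tcf19 (1.75).

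**Figure D3:**
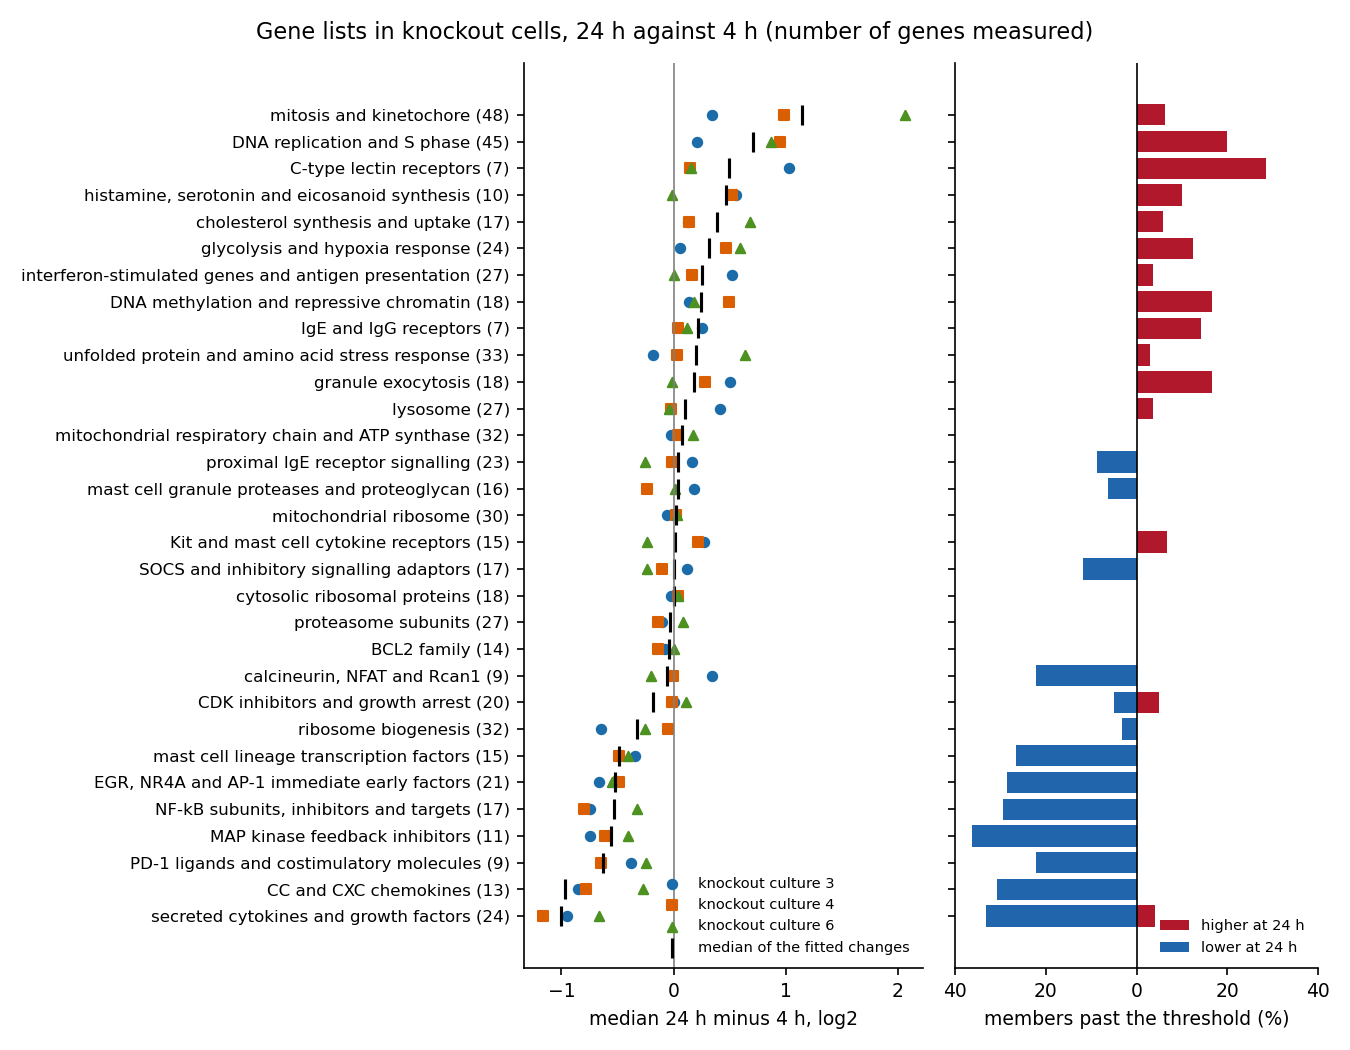
Gene lists in KO cells, with the number of measured genes in brackets. Left: median change at 24 h minus 4 h (log2 intensity) of the list in each KO culture (symbols) and of the fitted changes (black bar). Right: percent of members past the threshold, higher at 24 h to the right and lower to the left. Of the lists shown, mitosis has the highest median (1.15) and cytokines the lowest (-1.0), and the symbols for mitosis are the farthest apart.

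Levels in untreated KO cells of the same cultures place both times. They share arrays with the comparison and are given as a description. Of the 296 genes that fell, 278 had a 4 h mean above the untreated mean and 228 a 24 h mean below it, with medians of 0.55 at 4 h and -0.29 at 24 h against untreated. Of the 277 that rose, 243 had a 4 h mean below the untreated mean and 259 a 24 h mean above it, with medians of -0.36 and 0.50. Over all 8985 genes tested, 4213 had a 4 h mean and 4481 a 24 h mean above the untreated mean. Both sets were chosen by their difference between 24 h and 4 h, which itself favours such counts. In culture 3, Tnf had 6.47 untreated, 11.36 at 4 h and 8.65 at 24 h. In cultures 4 and 6 it had 7.48 and 6.76 untreated, 9.29 and 10.75 at 4 h, and 8.17 and 8.03 at 24 h. Rcan1 was at 8.25, 8.63 and 8.72 untreated, 10.08, 10.01 and 9.81 at 4 h and 8.50, 8.58 and 8.69 at 24 h, so that its 24 h level was close to the untreated level in each culture. Clec4n was at 6.85, 6.67 and 6.90 untreated, at 9.09, 7.49 and 7.93 at 4 h and at 10.34, 9.85 and 8.81 at 24 h, higher at each step in every culture. Fcgr2b was at 9.05, 9.79 and 9.52 untreated, lower at 4 h in each culture, and at 24 h above its untreated level in culture 3 and below it in cultures 4 and 6.

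**Figure D4:**
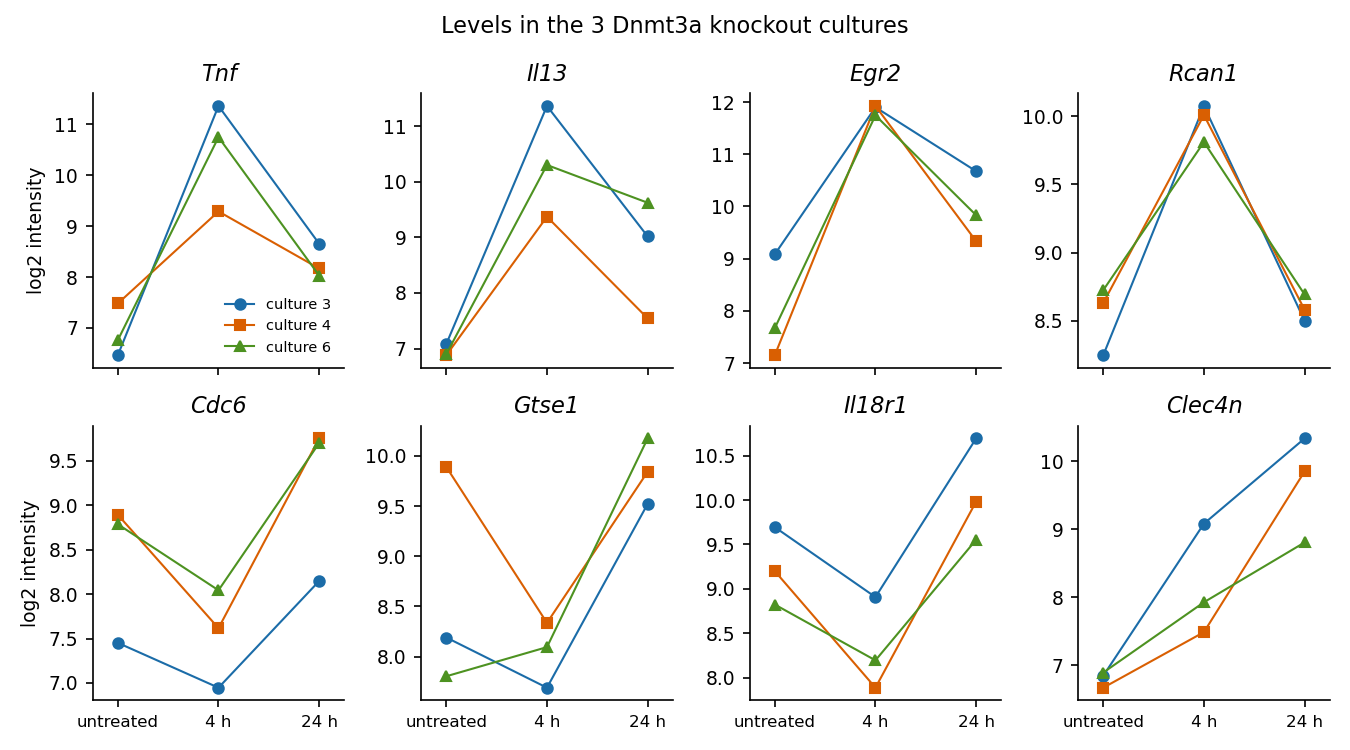
Log2 intensity of 8 genes in untreated cells, at 4 h and at 24 h, in KO cultures 3, 4 and 6 (1 line each, own vertical scale per gene). Tnf, Il13, Egr2 and Rcan1 peak at 4 h in every culture, Cdc6 and Il18r1 are lowest at 4 h in every culture, and Clec4n is higher at each step. Gtse1 is lowest at 4 h in cultures 3 and 4 but not in culture 6.

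The same comparison in WT cells, which shares no array with that in KO cells but shares its slides, gave 1604 genes (17.9%), 869 higher (9.67%) and 735 lower (8.18%). Of the 573 genes in KO cells, 434 also passed in WT cells in the same direction, which is 75.7% of the KO genes and 27.1% of the WT genes. The direction in WT cells was the same for 277 of 277 rises and 294 of 296 falls. Over all genes tested, the changes in KO and WT cells had a Pearson r of 0.872 and a slope of KO on WT change of 0.733, as a description across genes, which are not independent replicates. The difference between the genotypes was past the threshold for 0 of 8985 genes in limma (189 at an unadjusted p under 0.05, lowest adjusted p = 1.0), so no change can be called particular to KO cells.

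**Figure D5:**
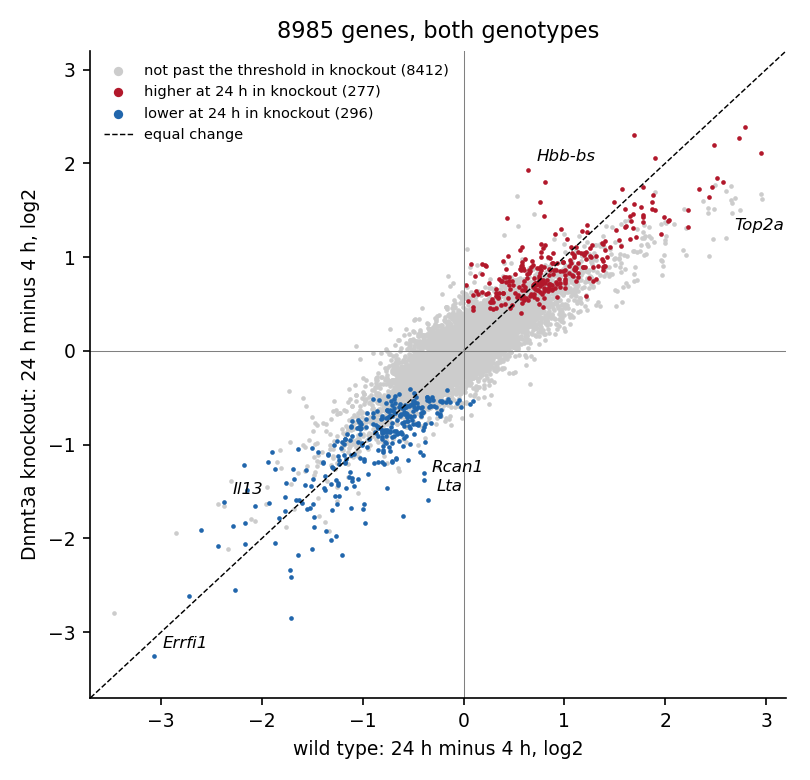
Change at 24 h minus 4 h of each of 8985 genes in KO cells (vertical) and WT cells (horizontal), in log2 intensity. Red and blue points are the 277 higher and 296 lower genes in KO cells, grey points the others, and the dashed line marks equal change. Red points lie right of 0 and all but 2 blue points left of it.

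The cell cycle lists had smaller medians in KO than in WT cells. Of the 48 mitosis genes 3 rose in KO cells and 38 in WT cells, with medians of 1.15 and 1.79. Over all genes tested 3.08% rose in KO cells and 9.67% in WT cells. The change was smaller in size in KO cells for 44 of the 48 genes, against 5459 of all 8985 genes. The difference between genotypes did not pass for any of the 48. KO culture 6 (2.06) lay above WT cultures 6 and 9 (1.12 and 1.80), so the cultures of the genotypes overlapped. For the replication list 9 genes rose in KO and 38 in WT cells (medians 0.71 and 1.15). Ribosome biogenesis genes fell in 1 KO and 17 WT cases of 32 (medians -0.32 and -0.62), against 3.29% and 8.18% of all genes tested.

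Of the genes with the smallest p for a difference between genotypes, none was past the threshold. Rcan1 fell by 1.38 in KO cells and had a change of -0.40 in WT cells (adjusted p = 0.0834), where it had 8.73, 9.03 and 8.76 at 24 h, against 9.34, 9.31 and 9.06 at 4 h. All WT 4 h arrays were below all KO 4 h arrays, and the difference of the changes was -0.98 (unadjusted p = 0.00052, adjusted p = 1.0). Lta, with a difference of -1.24 (unadjusted p = 0.00784), had 6.44, 6.42 and 6.30 at 24 h in WT cells, against 7.45, 6.51 and 6.26 at 4 h. Apart from 7.45, these levels were as dim as signals below the limit. Mrgprg, for example, had 6.65, 6.76 and 6.79 on the KO 24 h arrays, with 0 of 3 above the limit. Whether dim signal limited the WT change of Lta was not tested. Hapln4, at least 1.09-fold higher at 24 h in KO cells, and Mrgprg, at least 1.38-fold lower, had changes of 0.11 and 0.07 in WT cells (unadjusted p = 0.00225 and 0.00302). Fdx2 and Hspa4 had changes of -0.02 and 0.13 in KO cells, against falls of 0.82 and 0.51 in WT cells (unadjusted p = 0.00294 and 0.00331). Hbb-bs had a change of 0.64 in WT cells, which did not pass (adjusted p = 0.268), and the difference of 1.29 had an unadjusted p of 0.0352.

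The KO cultures resembled each other to different degrees. Across all genes tested the changes of cultures 3 and 4 had a Pearson r of 0.647, those of cultures 4 and 6 of 0.458 and those of cultures 3 and 6 of 0.175, while their SDs across genes were alike (0.581, 0.561 and 0.543 in cultures 3, 4 and 6). Among the 296 falls the smallest change of the 3 was that of culture 6 in 170, of culture 3 in 72 and of culture 4 in 54. Among the 277 rises it was that of culture 6 in 115, of culture 3 in 104 and of culture 4 in 58. Lists differed in which culture led: lysosome genes had medians of 0.41, -0.02 and -0.04 in cultures 3, 4 and 6, interferon-stimulated genes 0.52, 0.16 and 0.01, and unfolded protein response genes -0.19, 0.03 and 0.64.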

How the data were processed

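The deposited table of raw values gives a linear intensity per probe, without normalisation. The authors' other table is on the log2 scale, and quantile normalisation of the raw log2 intensities gave the same values to within 0.000556. Scanner software is not given in the sources used here. Intensities were background corrected (normexp, offset 50) and quantile normalised in R 4.3.3 with limma 3.58.1, and probes above the detection limit on at least 3 arrays were kept (16669 of 45281, 30 of 1504 receptor probes). Each of 8985 genes took its brightest probe. For Rbl1, Ppp3ca, Ctsc, Mcm10, Rab3a and Chst11 the other kept probes had the same sign in KO cells. Those probes did not pass when all kept probes with a gene symbol were tested. All 18 arrays entered 1 limma fit of 6 groups with culture as a replicate block, two-sided, with Benjamini-Hochberg adjustment over all genes. Arrays were paired by the culture numbers in their titles. Deviations from group means of the 24 h and 4 h arrays of 1 culture correlated with 0.159 to 0.462 in KO and 0.134 to 0.298 in WT cells. Because all arrays of a culture lie on 1 slide, these correlations cannot tell pairing by culture from a shared slide. Each ± or SE is limma's standard error, with its spread estimated from all 18 arrays and not from the KO pairs alone. Where 0 of 3 arrays of the dimmer group were above the limit, a fold is given against the limit as "at least". No array copied another (highest correlation 0.985). The fit was tested on simulated data.

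Named are the 12 largest rises and falls with 1 sign in all 3 KO cultures, up to 4 members of each list past the threshold (else the 2 largest changes), and the 5 smallest p for the genotype difference. Further list members and Top2a, H2ac6 and H2ac8 were named after their values were seen. The comparison, lists and motifs were chosen with earlier results of these data known. Of 45281 probes 10378 had no gene symbol. Other settings tried were no replicate block, slide or random blocks, the compared groups alone, other background, scaling, detection and probe choices, the authors' values, array weights, each culture left out, and, chosen after seeing the data, slide and condition together as a block for the genotype difference.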

Additional observations from a re-analysis of the deposited data

Results flagged for a closer look

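Probes without a single gene symbol were tested apart from the genes above. Of 2596 such kept probes 66 (2.54%) were past the threshold at 24 h against 4 h in KO cells, 23 higher and 43 lower, a smaller share than the 6.38% of genes. They carry no gene name here. Groups of 3 arrays were too small for an outlier test, and no list median moved one way in all KO cultures and the other way in all WT cultures.

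Of 665 measured list members 4 had 1 sign in all 3 KO cultures and the other in all 3 WT cultures. The count was not made over all genes tested, so it has no background share and is a description only. The C-type lectin gene Clec4e had changes of -0.72, -0.35 and -0.33 in KO cultures 3, 4 and 6, where it was above the limit on 0 of 3 arrays at 24 h and 2 of 3 at 4 h, and of 0.22, 0.23 and 0.35 in WT cultures 6, 8 and 9. The KO minus WT difference of the changes was -0.74 for Clec4e (unadjusted p = 0.00379 in limma), -0.51 for Ext1, a heparan sulfate polymerase gene, 0.31 for the lysosomal cholesterol transporter gene Npc2 and 0.36 for Uqcrq of respiratory complex III. None of the 4 passed (adjusted p = 1.0 each).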

How the results depend on the processing

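The 573 genes in KO cells became 67 with no replicate block, 3 with the compared groups alone and the block (1900 at an unadjusted p under 0.05), 2653 with array weights, whose estimation did not converge, and 0 to 225 without 1 KO culture. It stayed between 400 and 677 under the other settings. For WT cells the 1604 genes became 504 with no replicate block, 0 with the compared groups alone (2335 at an unadjusted p under 0.05), 3013 with array weights and 7 to 1635 without 1 WT culture. Median scaling gave 1997, 83.2% of them higher against 54.2%, and moved the median of all genes to 0.14 in WT and 0.07 in KO cells. The genotype difference had 0 genes under every setting (74 to 812 at an unadjusted p under 0.05, and 770 with slide and condition together as a block). Of the KO calls, 2 had the opposite sign with the probe of largest variance, and 0 in any other setting.

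Of 1646 values of 110 named genes 1189 kept direction and side of the threshold, 431 no longer passed, 13 newly passed and 13 turned sign. Those were Elane (0.11 with median scaling, 0.069 with cyclic loess, 0.23 with array weights, -0.22 to 0.35 without 1 KO culture), Vpreb1 (-0.25 with array weights, -0.25 to 0.33 without 1 culture), Fdx2 (0.040 with median scaling, -0.11 to 0.11 without 1 culture), Lilrb4a (0.21 with the probe of largest variance) and, without 1 culture, Cd34 (-0.048 to 0.32), Atp5a1 (-0.017 to 0.51), Cox7b (-0.020 to 0.73) and Hspa4 (-0.012 to 0.21). The cause was not tested. Of 495 list medians 29 moved by more than the spread between cultures. Genes below the detection limit and the number of arrays limit what could be called.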
